A study of Equus caballus with 13 samples.

Results

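The genes described here are 9 genes of DNA replication and cell proliferation, MCM2 to MCM7, PCNA, TOP2A and MKI67. They were chosen by name, with earlier results of the same tables known, so their values are given as a description and carry no test. MCM2 to MCM7 and PCNA, 7 genes, were listed in both tables of RNA kinetics, and TOP2A was listed in the sex table only, so that 8 of the 9 were listed. MKI67 was listed in neither, and no value is given for it. The tables held 11056 genes for old against young cells and 11249 for young male against young female cells, with 10974 in both.

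The samples were cultures of wild-type horse (Equus caballus) chondrocytes, the cells of cartilage, cultured for 2 days before 4 h of exposure to 4-thiouridine (4sU). This relative of uridine is built into RNA made during the labelling and can afterwards be read in sequencing as a base change. There were 3 groups, with 5 old female, 5 young female and 3 young male samples; age was labelled only as old or young, and the labels do not say whether each sample came from its own horse. For each gene and group the tables gave 1 synthesis rate, treated as arbitrary units, and 1 half-life, read as hours.

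MCM2 to MCM7 encode the 6 subunits of a ring-shaped helicase. The ring is loaded onto origins of replication in G1 and unwinds the DNA ahead of the fork in S phase. PCNA encodes the sliding clamp that holds DNA polymerases on the template, TOP2A the topoisomerase that untangles and condenses chromosomes in dividing cells, and MKI67 the Ki-67 protein, a common marker of proliferation that coats mitotic chromosomes. Transcription of these genes rises as cells enter the cycle, the MCM and PCNA genes with the G1/S wave driven by E2F factors and TOP2A and MKI67 later, toward G2 and mitosis. Chondrocytes in adult cartilage divide rarely and can resume division in culture.

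Depth per sample is unknown, since the tables hold group values only, and no replicate error or test across samples could be had. The labels name 12 batches for the 13 samples, and batch 10 alone joins 2 groups, so batch and group cannot be told apart. Both comparisons used the same young female samples, so the same reference error enters both. The defining chondrocyte markers were present, all 8 of 8 in both tables. Of the macrophage markers 1 of 5 (CD14) and of the endothelial markers 1 of 4 (VWF) were listed. Markers of dedifferentiated or fibroblastic cells (COL1A1, COL1A2, COL3A1, THY1 and PDGFRB) were all listed and moved with the groups; their values stand beside the results below.

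In young female cells the half-lives of all the helicase RNAs exceeded the 4 h of labelling. MCM6 had, in the age table, a half-life of 9.95 h, MCM4 of 9.07 h, MCM5 of 8.56 h, MCM3 of 7.07 h, MCM7 of 6.25 h and MCM2 of 4.93 h. MCM6 RNA was thus the longest lived of the 6 and MCM2 RNA the shortest, 2.02 times apart. All 6 were above the median of 3.64 h over all genes of that table. PCNA RNA was shorter lived, at 3.32 h, close to that median. TOP2A had the longest half-life of the 8, 19.1 h in the young female column of the sex table.

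The half-life can also be stated as the share of RNA made within the labelling time, under the assumption of constant levels and exponential decay. By that measure 24.3% of MCM6 RNA, 43.0% of MCM2 RNA and 56.6% of PCNA RNA in young female cells would have been new after 4 h. For TOP2A the share was 13.5%. A half-life of 1 to 24 h was taken as the range that 4 h of labelling can resolve. All values of the 7 genes in both tables lay within it, as did the young female value of TOP2A.

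The young female samples were used for both tables, which gives a second estimate from the same reads. Half-lives of the 7 genes differed between tables by −0.216% to 1.23%. Their synthesis rates in the sex table were 0.943 to 0.957 of those in the age table, beside a median ratio of 0.956 over all shared genes. Ratios between groups were therefore taken within a table. This repeat holds no variation between samples.

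**Figure D1:**
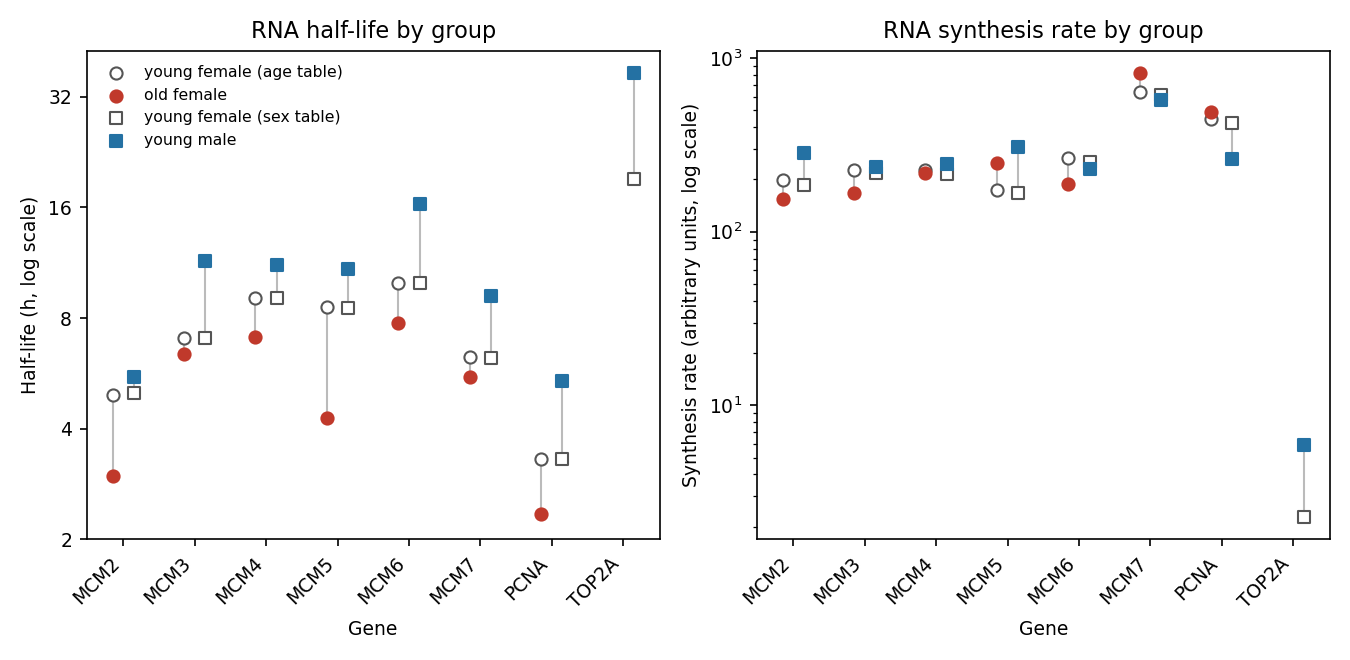
Half-life (left, hours, log scale) and synthesis rate (right, arbitrary units, log scale) of the 8 listed genes, with 1 group value per point: open circles for young female and filled circles for old female in the age table, open squares for young female and filled squares for young male in the sex table. Every old half-life lies below its young female value and every male half-life above it; after centring on all genes the male half-life of MCM2 lies below.

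The first comparison asked how RNA kinetics differed in old cells. All 7 listed genes had shorter half-lives in old than in young female cells, and 6 of the 7 had a lower implied level, the synthesis rate times the half-life divided by ln 2. Among all 11056 genes, half-lives were shorter for 63.1% and implied levels lower for 49.3%. Half-life had a median log2 ratio of −0.36 over the 7 genes and −0.08 over all genes, and that of implied level was −0.50 against 0.00. None of the 7 reached a 2-fold change of half-life, the threshold used here (2.06% of all genes were at least 2-fold shorter and 1.47% longer). These are bulk cultures, in which fewer cells that express a gene and less of its RNA per cell cannot be told apart.

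Among the helicase subunits, the half-life of MCM5 differed most in old cells. Its RNA had a half-life of 8.56 h in young female and 4.28 h in old cells, a log2 ratio of −0.999 that lay just short of the threshold. Its synthesis rate was 175 in young female and 247 in old cells (log2 ratio 0.50), and the implied level was 0.709 times the young value. The share of new RNA would be 47.7% in old cells against 27.7%. MCM5 thus combined a higher synthesis rate with a shorter half-life and a lower level.

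MCM2 was the only one of the 7 past the 2-fold threshold in implied level, beside 1.99% of all genes at least 2-fold lower and 2.13% higher. Its half-life was 4.93 h in young female and 2.98 h in old cells, and its synthesis rate was 198 against 154. Half-life had a log2 ratio of −0.73, synthesis rate one of −0.36 and implied level one of −1.09. Both quantities were lower, and the larger part of the level difference lay in the half-life.

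MCM6 was the gene just outside that threshold, with a log2 ratio of implied level of −0.84. Its half-life of 9.95 h in young female cells stood against 7.76 h in old cells, and its synthesis rate of 264 against 189. For MCM3 the half-lives were 7.07 h and 6.37 h and the synthesis rates 227 and 166, so that most of its log2 level ratio of −0.60 lay in synthesis (−0.45). MCM4 showed the reverse split. Its synthesis rates were 227 and 217, a log2 ratio of −0.06. This was 0.01 with the young female value of the sex table, which is on a slightly different scale. Its half-lives were 9.07 h and 7.09 h, and its log2 level ratio was −0.41.

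MCM7 differed from the other subunits in that its implied level was higher in old cells, with a log2 ratio of 0.19. The half-life was 6.25 h in young female and 5.54 h in old cells, while the synthesis rate was 638 against 820. Over the 6 subunits of the same complex, log2 level ratios spanned 1.28 units, from MCM2 to MCM7. Of the 7 synthesis rates, those of MCM5, MCM7 and PCNA were higher in old cells, as they were for 60.2% of all genes. None reached the threshold (4.59% of all genes were at least 2-fold higher and 2.92% lower).

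PCNA RNA had a half-life of 3.32 h in young female and 2.35 h in old cells. Its synthesis rate was 443 against 491, and the implied level was 0.783 times the young value. As for MCM5, the synthesis rate was the higher and the half-life the shorter in old cells. PCNA remained the shortest lived of the 7 in old cells and MCM6 the longest.

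Other markers moved as well. The summed implied level of the 5 fibroblastic markers was 158152 in young female and 78334 in old cells, and 0 of the 5 were higher. Of these, COL1A1 (log2 ratio −2.86), COL1A2 (−1.82) and COL3A1 (−1.12) were past the threshold. The summed level of the 8 chondrocyte markers was 1718510 against 1553310, but their median log2 ratio was −0.48 and 2 of the 8 were higher. COMP was at 0.83, and HAPLN1, at −1.01, was past the threshold. What part these differences have in the values of the replication genes was not tested.

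**Figure D2:**
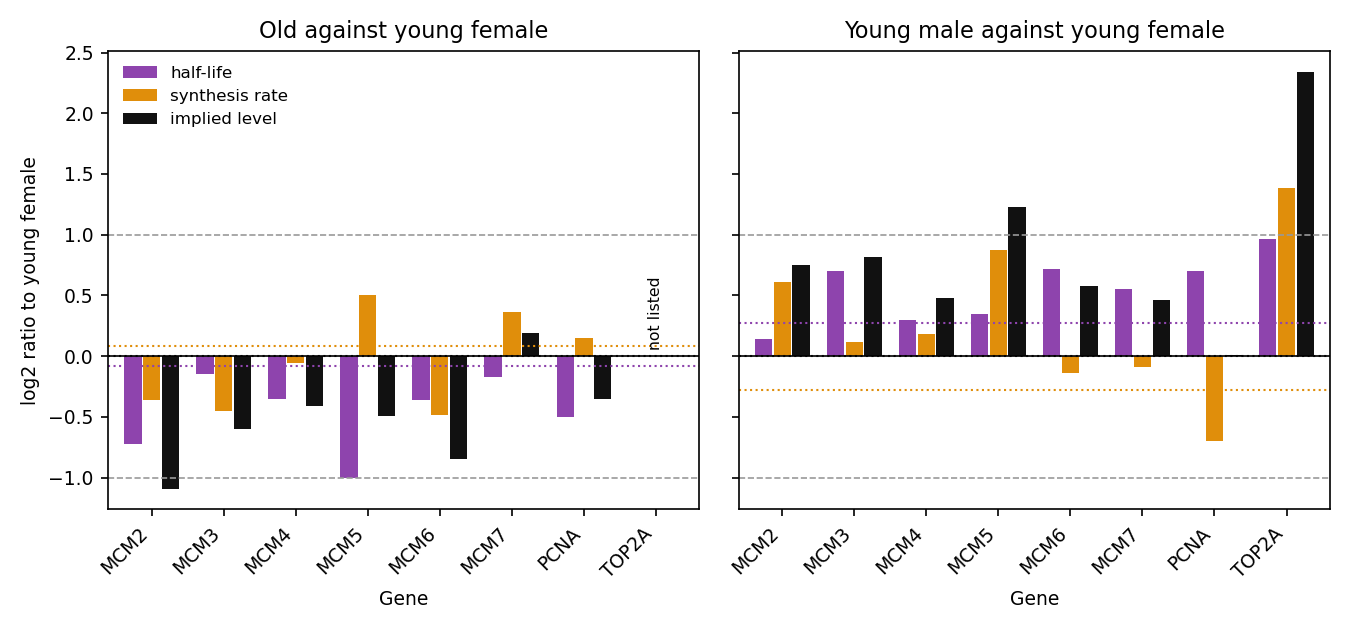
Log2 ratios to young female of half-life, synthesis rate and implied level for each gene, in old cells (left) and young male cells (right). Dashed lines mark a 2-fold change and dotted lines the median over all genes of the table in the colour of the quantity. On the left the half-life bars are all below 0 and on the right all above it, where MCM2 falls below the dotted line of all genes.

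The second comparison set young male against young female cells. All 8 listed genes had longer half-lives and higher implied levels in male cells, though the level of PCNA was 1.00 times the female one. With the young female value of the age table, which is on a slightly different scale, its log2 level ratio was −0.06. The half-lives of all genes were shifted in the same direction, by a median log2 ratio of 0.27, with 77.3% of genes longer, and synthesis rates by −0.28. The median over the 8 genes was 0.63 for half-life, or 0.35 relative to that shift, with 7 of 8 above it. For implied level it was 0.67 against 0.01 over all genes, of which 50.5% were higher. Synthesis rates were higher for 5 of the 8, against 28.9% of all genes. TOP2A was listed in the sex table only and may owe its listing to its male level, as set out below. Over the 7 genes without it, the median half-life ratio was 0.55 and the median level ratio 0.58. Of these 7, 4 had a higher synthesis rate in male cells, and the median synthesis ratio was 0.12. Their median half-life ratio was 0.28 relative to the shift of all genes, with 6 of the 7 above that shift. After centring within deciles of half-life it was 0.19, with 5 of the 7 longer.

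MCM5 had the largest difference in level of the 6 helicase subunits. Its synthesis rate was 167 in young female and 307 in male cells, and its half-life 8.54 h against 10.9 h. The implied level was 2.34-fold higher, with log2 ratios of 0.88 for synthesis, 0.35 for half-life and 1.23 for level. Relative to the shift of all genes the synthesis ratio was 1.16 and the half-life ratio 0.08, so that most of it lay in synthesis. It was 1 of 2 members past the threshold in level, the other being TOP2A, beside 3.00% of all genes at least 2-fold higher and 1.61% lower.

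MCM2 had a level 1.69-fold higher in male cells. The synthesis rate was 186 in young female and 284 in male cells, and the half-lives were 4.99 h and 5.51 h. Its log2 half-life ratio of 0.14 was −0.13 after centring on all genes, the one direction among the 8 half-lives that this centring turned. MCM4 had half-lives of 9.07 h and 11.1 h, a ratio of 0.29 that was 0.02 after centring and −0.09 after centring within deciles of half-life. Its synthesis rates were 216 and 245.

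For MCM3, MCM6 and MCM7 the half-life differed more than the synthesis rate, though less so for MCM3 and MCM7 relative to the shift of all genes. Relative to it the log2 ratios of half-life and synthesis were 0.42 and 0.40 for MCM3, 0.44 and 0.14 for MCM6, and 0.28 and 0.19 for MCM7. Within half-life deciles they were 0.34 and 0.38 for MCM3, 0.33 and 0.04 for MCM6, and 0.19 and 0.17 for MCM7. MCM3 RNA had a half-life of 7.06 h in young female and 11.4 h in male cells, with synthesis rates of 217 and 236. MCM6 RNA had half-lives of 9.93 h and 16.3 h, and its synthesis rates were 253 and 229 (log2 ratio −0.14, or 0.14 relative to all genes). MCM7 RNA had half-lives of 6.24 h and 9.16 h, and its synthesis rates were 610 and 572 (−0.09, or 0.19 relative to all genes). Their implied levels were higher by 1.76-, 1.49- and 1.38-fold. Over the 6 subunits, log2 level ratios spanned 0.77 units in this comparison.

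PCNA had opposed differences of nearly equal size. Its half-life was 3.31 h in young female and 5.40 h in male cells, and its synthesis rate 424 against 261. The log2 ratios were 0.70 and −0.70, which left a level ratio of 0.01. Of the 8 listed members, PCNA had the level ratio closest to 0 in male cells.

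TOP2A RNA had a half-life of 19.1 h in young female and 37.2 h in male cells, the latter beyond the range that the labelling can resolve. Its synthesis rate was 2.27 against 5.92, and the implied level was 62.5 against 317, a 5.07-fold difference. Of the 8 genes, TOP2A was the only one past the threshold for synthesis (3.78% of all genes were at least 2-fold higher and 8.37% lower); none was past it for half-life (5.62% longer and 1.96% shorter). Its young female level ranked 9 from the lowest among the 11249 genes, a position not known to be corrected for transcript length. The gene filter is not given in the sources used here, and a gene this low in female cells may have been listed through its male level, in which case a difference was bound to appear.

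Fibroblastic and cartilage markers were also higher in male cells. The summed implied level of the 5 fibroblastic markers was 150979 in young female and 378208 in male cells, with 5 of 5 higher and COL1A1 (log2 ratio 4.19) and COL1A2 (3.40) the most. That of the 8 chondrocyte markers was 1640740 against 4042570, with 7 of 8 higher. Their part in the values of the replication genes was not tested.

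The order of half-lives was partly the same in every group. MCM6 was the longest lived and MCM2 the shortest lived of the 6 helicase RNAs in young female, old and male cells, and PCNA was shorter lived than any of them. MCM5 was the third of the 6 in young female cells, the fifth in old cells and the fourth in male cells, and MCM3 was the fourth, the third and the second. In male cells MCM3, MCM4 and MCM5 lay between 10.9 and 11.4 h, a gap that cannot be judged without a spread between samples. The longest over the shortest of the 6 was 2.02 in young female, 2.60 in old and 2.96 in male cells.

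**Figure D3:**
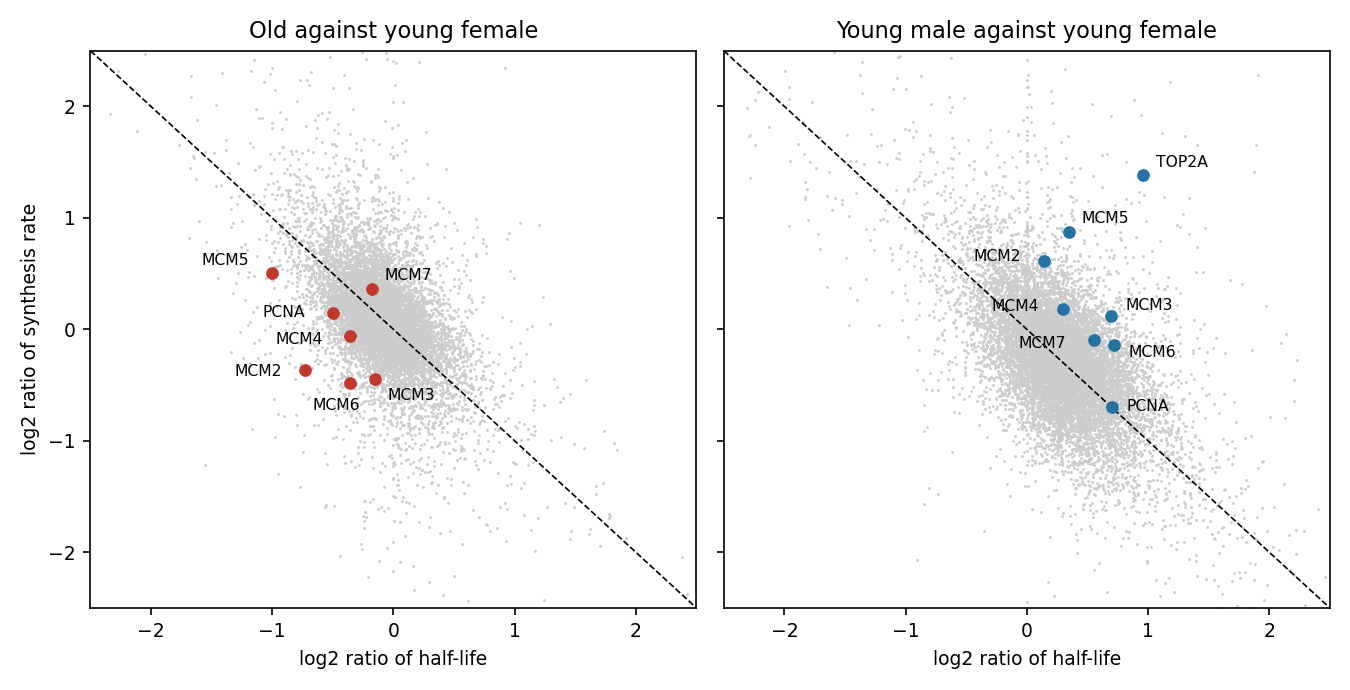
Log2 ratio of synthesis rate against log2 ratio of half-life for all genes (grey points) and for the listed members (coloured, named), in old cells (left) and young male cells (right). On the dashed line both differences cancel, so genes below it have a lower implied level and genes above it a higher one; 241 and 237 genes lie outside the axes. In old cells 6 of 7 members lie below the line, and in male cells PCNA lies on it and the other members above it.

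Differences in half-life and synthesis rate added up in some members and opposed each other in others. In old cells 16.1% of all genes were lower and 13.1% higher in both quantities, and the former held MCM2, MCM3, MCM4 and MCM6, while MCM5, MCM7 and PCNA were shorter lived and had higher synthesis rates. In male cells 14.6% of all genes were higher and 8.33% lower in both, and the former held MCM2, MCM3, MCM4, MCM5 and TOP2A. Both quantities were estimated from the same libraries, and a difference in 1 estimate can appear with the opposite sign in the other. Between the 2 young female estimates, RECQL4 had a half-life 33.4% longer in the sex table, a synthesis ratio of 0.716 and a level ratio of 0.955. For MCM8 these were 24.7%, 0.765 and 0.954, beside a median level ratio of 0.955 over all shared genes. Whether this bears on the members with opposed differences was not tested.

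The other genes of replication and the cell cycle were taken from 10 lists with 143 genes, of which 90 were in both tables, 9 in the sex table only and 44 in neither. In old cells the 90 genes had median log2 ratios of −0.04 for half-life and −0.06 for implied level. Of the 90, 34 were higher and 56 lower in level, where 49.3% of all genes were lower. At least 2-fold higher were 0 and at least 2-fold lower 3, beside 2.13% and 1.99% of all genes. These 3 were TK1, UHRF1 and CCND1. In male cells 99 genes were listed, with a median level ratio of 0.19, or 0.092 over the 90 in both tables, and 12 were at least 2-fold higher and 0 lower, beside 3.00% and 1.61% of all genes. Among the 90 genes in both tables, 4 were at least 2-fold higher, namely RECQL4, TIMELESS, TK1 and UHRF1. The other 8, among them CDT1, RRM2, CHTF18 and PRC1, were listed in the sex table only and, as for TOP2A, may have been listed through their male level, in which case their direction was bound to appear. At these shares of all genes, 0 past the threshold within a single list is near the background.

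The list around origin recognition and helicase loading had levels close to the young female ones in old cells. Of its 13 genes 8 were listed for old cells, where their median log2 level ratio was 0.05 and 0 were past the threshold. These 8 were ORC2 to ORC5, GMNN, MCMBP, MCM8 and MCM9, so that not all of them load the helicase, and CDT1 was not among them. The level ratio was highest for ORC2 (0.27), a subunit of the origin recognition complex, and lowest for GMNN (−0.21), whose product geminin blocks relicensing. In male cells the median of 9 genes was −0.25, or −0.06 over 8 genes after centring within half-life deciles. GMNN was again lowest (−0.95), and CDT1, the loader of the helicase that geminin inhibits, was highest (2.34), with synthesis rates of 27.6 and 122; CDT1 was listed for the sex comparison alone.

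Of the 15 helicase activators and fork companions, 10 were listed for old cells, with a median level ratio of −0.08 and 0 past the threshold. They ran from WDHD1 (−0.46), a fork protein that links helicase and polymerase, to TIMELESS (0.27), a fork protection factor. In male cells the median of 11 was 0.28, with 3 at least 2-fold higher (3.00% of all genes were), or 2 of the 10 in both tables. RECQL4, a helicase needed for initiation, was highest (1.58), and TIPIN, the partner of TIMELESS, was lowest (−0.64).

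Replicative polymerases, primase and fork enzymes were listed for 15 of 19 genes in both comparisons. In old cells 12 of the 15 had lower and 3 higher levels, where 49.3% of all genes were lower, with a median of −0.09, a range from POLE (−0.52), the leading-strand polymerase, to POLE4 (0.31), a small subunit of the same enzyme, and 0 past the threshold. In male cells the median was 0.34, or 0.13 after centring within half-life deciles, and 0 were past the threshold. LIG1, which seals Okazaki fragments, was highest (0.70) and POLD3, a subunit of the lagging-strand polymerase, lowest (−0.56).

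Partners of the PCNA clamp had small differences in old cells. The 6 listed of 9 had a median level ratio of 0.03, from RFC2 (−0.31) to RFC3 (0.13), both subunits of the clamp loader. In male cells the median of 7 was 0.16, or 0.11 over the 6 in both tables, with RFC5 lowest (−0.27) and CHTF18, of an alternative clamp loader, highest (1.18). Like CDT1, CHTF18 was listed for the sex comparison alone, with a young female synthesis rate of 1.38.

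Enzymes that supply deoxynucleotides included some of the larger differences. TK1, the S-phase thymidine kinase, had a log2 level ratio of −1.02 in old cells, with half-lives of 5.53 h and 5.68 h and synthesis rates of 23.8 and 11.4. In male cells its ratio was 2.12, with a half-life of 15.9 h against 4.96 h. RRM2, the S-phase subunit of ribonucleotide reductase, was highest in male cells (2.94) and was also listed for that comparison alone. RRM2B, the p53-induced form of that subunit, was lowest (−0.92). DUT, which removes dUTP, was highest of the list in old cells (0.29). Medians were −0.08 over 9 genes in old and 0.42 over 10 in male cells.

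Chromatin assembly genes were listed for 6 of 7. UHRF1, which guides maintenance methylation to newly made DNA, had the lowest ratio in old cells (−1.71) and the highest in male cells (1.58). Its synthesis rates were 141 in young female and 30.3 in old cells, and 137 in young female and 240 in male cells. CHAF1B, a subunit of chromatin assembly factor 1, stood at the other end of both comparisons (0.32 in old and 0.03 in male cells). The medians were −0.02 and 0.23.

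Regulators of the G1/S step were listed for 16 of 23 genes. CCND1, which encodes cyclin D1, had a synthesis rate of 1175 in young female and 232 in old cells and a log2 level ratio of −2.17, while its half-lives were 3.72 h and 4.18 h. In male cells its level ratio was 0.08. TFDP2, a partner of E2F factors, was highest in both comparisons (0.99 in old and 0.73 in male cells). CDKN1A, the p21 inhibitor of cyclin-dependent kinases, was lowest in male cells (−0.94). The medians were −0.08 and 0.08.

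Of 30 G2/M and mitotic genes, 4 were listed for old cells and 9 for male cells. In old cells levels ran from CDC25B (−0.31) to CDC25A (0.26), both phosphatases that activate cyclin-dependent kinases, with 0 past the threshold. In male cells PRC1, which bundles spindle microtubules in anaphase, was highest (3.54), with synthesis rates of 12.2 and 38.5 and half-lives of 3.61 h and 13.4 h. PRC1 was listed for the sex comparison alone, with implied levels of 63.9 and 744. CDC25A was lowest (−0.77). Its young female half-life was 0.993 h in the age table and 0.00716 h in the sex table, from the same samples. The median of the 9 was 0.90, and over the 4 in both tables it was 0.09.

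Condensin and cohesin subunits, 12 of 13 listed, had median level ratios of −0.09 by age and −0.03 by sex, and 0 were past the threshold in level. NCAPG2, of condensin II, was highest in both comparisons (0.24 and 0.90). SMC2, of condensin, was lowest in old cells (−0.40) and RAD21, of cohesin, in male cells (−0.81). The other topoisomerases, 4 of 4 listed, had medians of 0.09 and −0.07, with TOP3A highest in both (0.20 and 0.38) and TOP1 lowest in both (−0.14 and −0.79). TOP2B, the form of topoisomerase II that does not depend on proliferation, had level ratios of −0.01 and −0.20, where TOP2A stood at 2.34 in male cells.

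**Figure D4:**
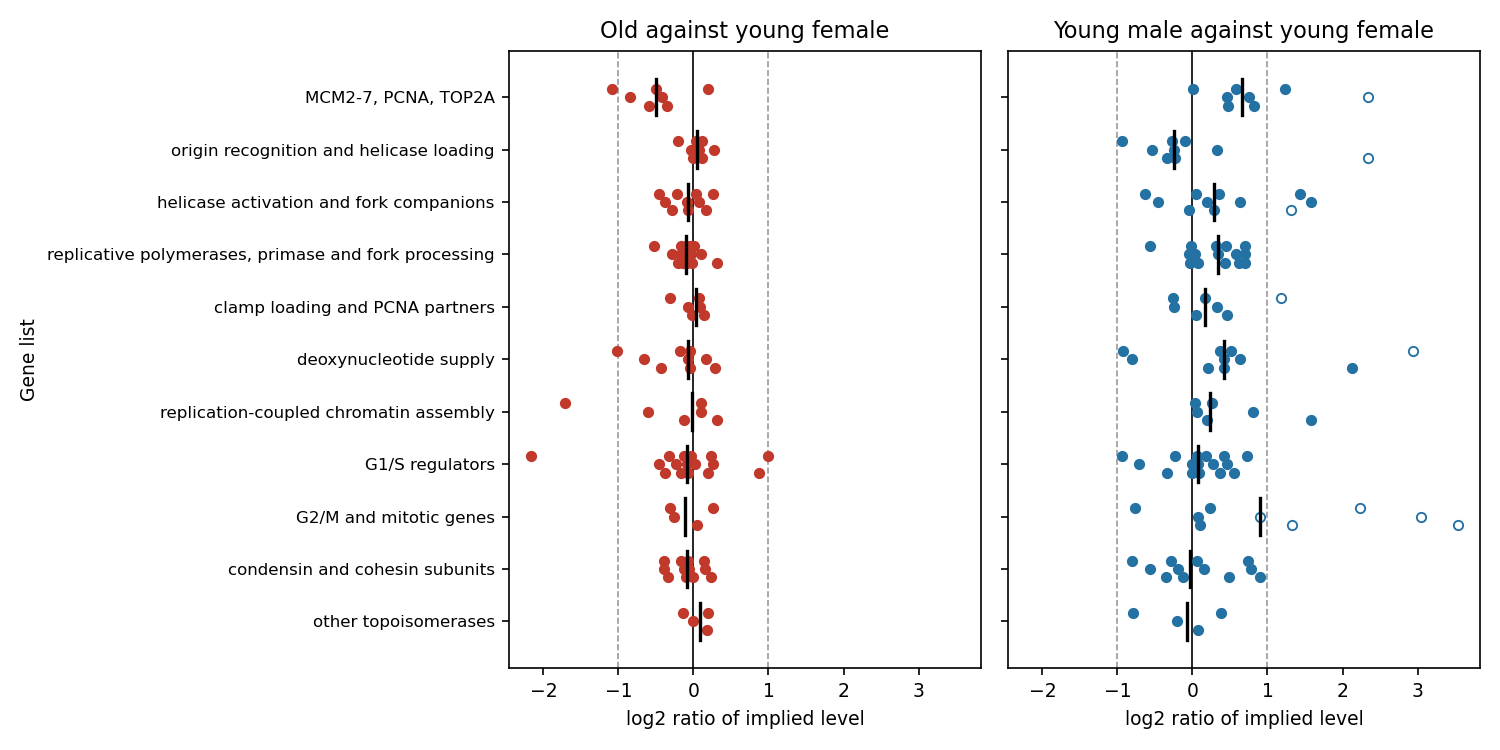
Log2 ratio of implied level for each gene of the members (top row) and of 10 lists of replication and cell cycle genes, in old cells (left) and young male cells (right). Points are single genes, open where the gene was listed in the sex table only; black bars are medians and dashed lines a 2-fold change. Most members lie left of 0 in old cells, where the list medians lie near 0, and the right-most points in male cells are mostly open.

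Genes of a like pattern were sought over 4 log2 ratios (half-life and synthesis rate in both comparisons) among the 10974 genes in both tables. The members' median profile was −0.36 and −0.06 for half-life and synthesis rate in old cells and 0.55 and 0.12 in male cells. Among the nearest other genes with a symbol were PTPA (Euclidean distance 0.162), B4GALT2 (0.179), CDK16 (0.194) and SPC24 (0.207). The young female half-lives of these 4 ranged from 9.92 h for B4GALT2 to 17.6 h for CDK16. MCM4 was the member nearest to that profile (0.266, rank 26 of all genes), and MCM5 the farthest (1.16, rank 8155). MCM2 was at rank 4230 and PCNA at rank 5260. Since the profile is the median of the members' own values, the nearness of a member to it is partly built in.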

How the data were processed

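The authors' 2 deposited tables held 1 synthesis rate and 1 half-life per gene and group, with 0 columns of values per sample, no read counts and no p-values. The submitters' processing notes name cutadapt 4.5, STAR 2.5.3 and the genome build EquCab3.0. The kinetic model, the annotation, the gene filter and the way replicates were combined are not given in the sources used here. The group headed "Young" was read as young female, because the labels assign those samples to that table. Half-lives were read as hours, since labelling lasted 4 h and values stopped at 69.3, a decay rate of 0.01 per h.

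Log2 ratios to young female were computed within each table for both quantities and for their product divided by ln 2, the implied level, which assumes constant levels. A gene was past the threshold at an absolute log2 ratio of at least 1. No pseudocount or filter was applied. Ratios and counts were tested on simulated data. Python 3.11.15, pandas 2.3.3, numpy 2.4.6 and matplotlib 3.10.9 were used.

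The members and gene lists were chosen with earlier results of these data known. From each list, the genes with the highest and lowest level ratio in each comparison were named, beside the 5 genes nearest to the members' median profile, of which 1 is not reported here. Some further genes past the threshold in level, and TOP2B as the form paired with TOP2A, were named after their values were seen. All 9 members matched a symbol in the RefSeq gene table, whose assembly differs from the files' build, so no coordinates are given.

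The alternatives were a threshold of 0.5, centring on the median of all genes or within 10 deciles of half-life (ordered by the group outside the ratio), half-lives of 1 to 24 h, genes in the upper 75% of mean synthesis, and the other table's young female values. Leaving out TOP2A was added after seeing the data.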

Additional observations from a re-analysis of the deposited data

How the results depend on the processing

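In the absence of replicate values, counts within 1.5 times and medians within 0.05 log2 units were taken as the same. By these limits 23 of 39 alternative counts and 13 of 33 alternative medians over the members were as reported. No paired analysis was possible because the tables hold group values and no values per sample. Depth is unknown, so what it limits could not be judged.

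In old cells, a threshold of 0.5 gave 2 members in half-life, 1 in synthesis rate and 3 in level, beside 13.4%, 23.0% and 15.6% of all genes. The half-life median was −0.27 after centring on all genes and −0.29 within half-life deciles. The synthesis median was −0.14 and −0.11 under these. With the other table's young female values it was 0.0079 and the level median was −0.43. Over all shared genes, young female synthesis rates in the sex table were at the median 0.956 times those in the age table. That swap shifts the ratios of most genes by this scale, and the changed sign of the synthesis median reflects it.

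In male cells, a threshold of 0.5 gave 5 members in half-life, 4 in synthesis rate (3 higher, 1 lower) and 5 in level, beside 31.8%, 41.1% and 25.0% of all genes. Centring on all genes gave medians of 0.35 for half-life and 0.43 for synthesis, with 2 members past the threshold for synthesis. Within half-life deciles the medians were 0.19, 0.36 and 0.39 for half-life, synthesis and level, with 1 member past the threshold for level. TOP2A drops out within deciles, within 1 to 24 h, in the upper 75%, with the other table's values and where it was left out. In the last 4 of these the counts were 0 for synthesis and 1 for level. Medians for half-life and level were 0.55 and 0.58 in 3 of them, and 0.55 and 0.51, with 0.056 for synthesis, under the other table's values. Level medians of the lists also moved within half-life deciles. They were 0.22 for deoxynucleotide supply (9 genes), 0.13 for chromatin assembly, 0.24 for G1/S regulators and 0.35 for mitotic genes (4 genes). For condensin and cohesin the median turned to 0.01, and for the other topoisomerases it was −0.12.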

Other observations

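In the RefSeq gene order, the 9 genes lie on 9 different chromosomes. The nearest protein-coding genes on either side were looked up after the values of the members had been seen, and their values are given with no test. MCM4 lies next to PRKDC, the catalytic subunit of a DNA repair kinase, whose log2 level ratios were −0.08 in old and −0.23 in male cells, where those of MCM4 were −0.41 and 0.48. MCM5 lies next to HMOX1, the stress-induced heme oxygenase. HMOX1 had a log2 half-life ratio of −0.72 and a synthesis ratio of 0.63 in old cells, beside −0.999 and 0.50 for MCM5. In male cells the synthesis ratio of HMOX1 was −1.86 and that of MCM5 0.88.

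MCM7 hosts the microRNA genes MIR25, MIR93 and MIR106B within its span, and its neighbours COPS6 and AP4M1 had level ratios of −0.11 and 0.13 in old cells, beside 0.19 for MCM7. TOP2A lies next to IGFBP4, an IGF-binding protein, which like TOP2A was listed in the sex table only and may likewise have been listed through its male level. IGFBP4 had a level ratio of 2.13 in male cells, with a half-life ratio of 0.02 and a synthesis ratio of 2.11.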
